A study of Mus musculus with 12 samples.

Results

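The genes examined were 7 markers and regulators of lymphatic vessels, *Prox1*, *Lyve1*, *Flt4*, *Vegfc*, *Pdpn*, *Ccl21a* and *Reln*, chosen by symbol. All 7 were among the 35976 genes listed in the count data of 12 mouse scars, and 6 of them were among the 18853 genes that passed the filter on low counts and were tested. *Ccl21a* did not pass it. The scars came from male mice aged 8 to 12 weeks, of the genotypes Tem1WT/WT and Tem1lacZ/lacZ, with 3 mice in each of 4 groups. In the Tem1lacZ/lacZ mice, which had been backcrossed to C57BL/6J, lacZ replaced the only exon of Tem1, a deletion that is not limited to a cell type. All mice received a 1.5-cm wound on the back, over which a plastic device was fixed after 6 days. Traction was applied by lengthening it by 1 mm/day until 8 mm were reached, and sham mice wore it without lengthening. The 2 questions of the design were thus what traction does to the scar in each genotype and what the loss of Tem1 does under each treatment.

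Lymphatic capillaries take up fluid and leukocytes from the dermis. They grow when the secreted factor VEGF-C activates its receptor VEGFR-3, encoded by *Flt4*, on lymphatic endothelial cells, and PROX1 is the transcription factor that gives these cells their identity. LYVE-1 and podoplanin are surface proteins used to stain lymphatic vessels in skin, CCL21 is the chemokine with which they attract dendritic cells, and reelin is secreted by the endothelium of collecting vessels. None of these genes is exclusive to lymphatic vessels. *Lyve1* is also made by resident macrophages, *Pdpn* by fibroblasts and keratinocytes, *Vegfc* by blood endothelial cells and macrophages, and *Flt4* by sprouting blood capillaries. In bulk tissue, fewer cells of a type and less RNA per cell cannot be told apart.

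Library totals ranged from 41536788 to 64644293 counts. *Cd248*, the gene of Tem1, was at 0 to 0.248 CPM (counts scaled to library size) in the Tem1lacZ/lacZ libraries and at 92.4 to 337 CPM in the others. Some libraries stood apart. The summed level of 10 neutrophil markers was 6810 CPM in replicate 1 of the Tem1WT/WT traction group against 610 and 287 CPM in the other two. The summed level of 10 keratinocyte markers was 48435 CPM in replicate 1 of the Tem1lacZ/lacZ traction group and at most 24697 CPM elsewhere. The 8 skeletal muscle markers summed to 13125 CPM in replicate 1 of the Tem1WT/WT sham group against 3665 and 1314 CPM in the other two, and to 337 to 2133 CPM in the Tem1WT/WT traction group. With traction in Tem1WT/WT mice all 8 were lower with an unadjusted p under 0.05 in edgeR (list median -2.64 on the log2 scale), as were 14.7% of all genes, and 0 passed the adjusted threshold. Adipocyte markers summed to 2657 CPM in replicate 1 of the Tem1lacZ/lacZ sham group against 284 and 669 CPM in the other two. The part of these tissues in the results was not tested. B cell markers, which mark lymph node tissue, summed to 1.53 to 4.12 CPM. The defining lymphatic genes *Prox1*, *Flt4* and *Lyve1* were detected in all 12 libraries.

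Levels set per exon length, in RPKM (CPM per 1 kb of exon), placed the 6 measurable genes in a similar order in each group. *Pdpn* was the highest, with group means from 67.5 to 136 RPKM, and *Lyve1* followed at 16.5 to 27.7 RPKM. *Flt4* came next at 1.47 to 4.94 RPKM. The ranges of *Pdpn*, *Lyve1* and *Flt4* did not overlap in any group. *Prox1*, at 0.617 to 1.25 RPKM, *Vegfc*, at 0.691 to 2.09 RPKM, and *Reln*, at 0.696 to 1.92 RPKM, lay below. Neighbours among these 3 overlapped within each group.

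**Figure D1:**
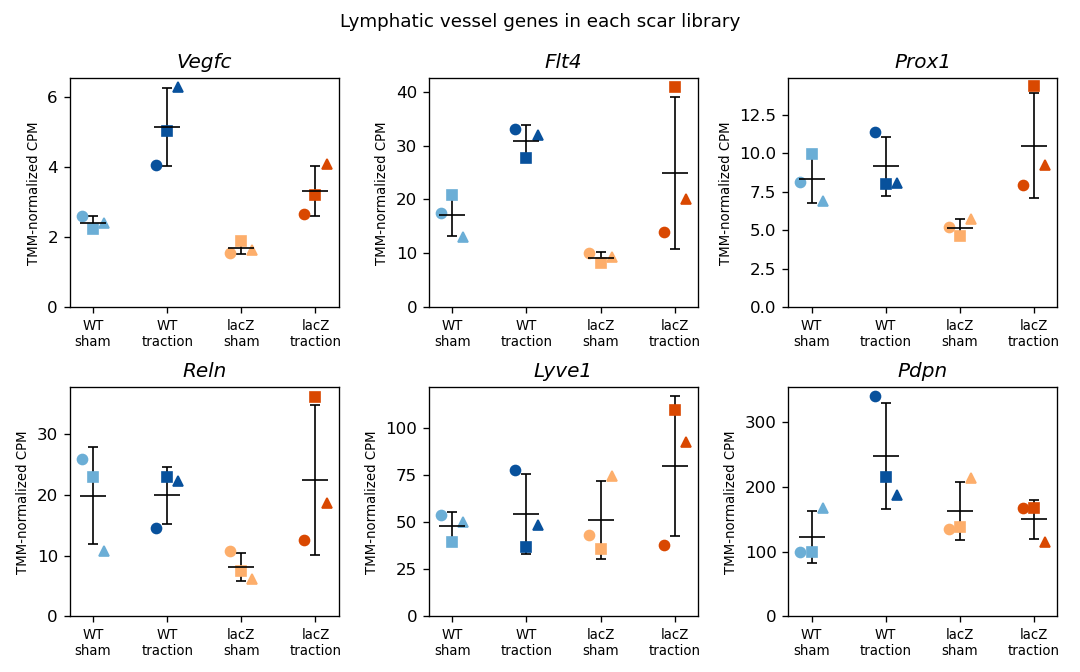
TMM-normalized CPM (vertical axis, linear, from 0) of 6 lymphatic vessel genes in each of the 12 libraries, by group. Circles, squares and triangles are replicates 1, 2 and 3, and bars give the mean and SD of 3 mice. *Vegfc* and *Flt4* were higher with traction in every library of each genotype, while *Lyve1* overlapped between all groups.

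*Vegfc*, the ligand, lies on the plus strand of chromosome 8 (GRCm38, chr8:54077606-54187096). It was measured at 2.60, 2.23 and 2.41 CPM in the sham group of Tem1WT/WT mice and at 4.07, 5.03 and 6.29 CPM in their traction group. All 3 scars under traction were thus above all sham scars. The log2 fold change was 1.09 (SE 0.25, 95% CI 0.54 to 1.63, adjusted p = 0.0329 in edgeR's quasi-likelihood test with Benjamini-Hochberg adjustment). *Vegfc* was the only one of the 6 genes tested that passed the threshold of 0.05 in this comparison, in which 9.15% of all genes tested passed, 5.61% upward. Changes upward with an unadjusted p under 0.05 were found for 3 of the 6 genes, *Vegfc*, *Flt4* and *Pdpn*, and for 16.7% of all genes, and the same 3 genes and 17.7% of all genes were higher without overlap. The call did not hold without replicate 1, 2 or 3 of the Tem1WT/WT sham group, replicate 3 of the Tem1lacZ/lacZ sham group or replicate 3 of the Tem1WT/WT traction group, for which edgeR's adjusted p lay between 0.0538 and 0.123 while the log2 fold change stayed between 0.92 and 1.14.

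In Tem1lacZ/lacZ mice, *Vegfc* was at 1.55, 1.90 and 1.64 CPM in the sham group and at 2.66, 3.20 and 4.09 CPM in the traction group. The groups again did not overlap. The log2 fold change of 0.97 (SE 0.25, 95% CI 0.42 to 1.52) had an unadjusted p of 0.00256 and an adjusted p of 0.598 in edgeR, in a comparison in which 0% of all genes passed the adjusted threshold. Upward changes with an unadjusted p under 0.05 were seen for 5.66% of all genes, and 6.77% of all genes were higher without overlap. The traction effects of the 2 genotypes differed by -0.12 (95% CI -0.89 to 0.66, adjusted p = 0.941, edgeR interaction term), an interval that leaves room for a difference of either sign. Averaged over both genotypes, *Vegfc* rose with traction by 1.03 on the log2 scale (SE 0.18, 95% CI 0.64 to 1.42, adjusted p = 0.0203 in edgeR). In this average 9.73% of all genes passed, 6.5% upward and 3.23% downward, and *Vegfc* and *Flt4* were the 2 of the 6 genes that did. The lowest *Vegfc* level of the 6 traction scars, 2.66 CPM, was also above the highest of the 6 sham scars, 2.60 CPM, as was so for 0.859% of all genes. Macrophages are another source of *Vegfc*, and the summed level of 10 macrophage markers was 1316 to 1993 CPM in the sham group and 2221 to 3163 CPM in the traction group of Tem1WT/WT mice, without overlap. It was 1041 to 1616 and 1045 to 2110 CPM in those of Tem1lacZ/lacZ mice. All 10 markers had a positive change with traction in each genotype. In edgeR, 2 passed in Tem1WT/WT mice, where 5.61% of all genes passed upward. In Tem1lacZ/lacZ mice 0 passed and 2 had an unadjusted p under 0.05, as had 5.66% of all genes upward. The part of macrophages in the *Vegfc* values was not tested.

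Between genotypes, *Vegfc* was lower in Tem1lacZ/lacZ than in Tem1WT/WT mice by a log2 difference of -0.51 in the sham groups (95% CI -1.06 to 0.04, adjusted p = 0.444, edgeR) and of -0.63 in the traction groups (95% CI -1.17 to -0.08, adjusted p = 0.148). The sham groups did not overlap, whereas in the traction groups the highest Tem1lacZ/lacZ scar, at 4.09 CPM, was above the lowest Tem1WT/WT scar, at 4.07 CPM. Neither difference passed the adjusted threshold.

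*Flt4*, the receptor, lies on chromosome 11 (chr11:49609263-49652739, plus strand). It was at 17.6, 20.8 and 12.96 CPM in the sham group and at 33.0, 27.7 and 32.0 CPM in the traction group of Tem1WT/WT mice. Without overlap between the groups, its log2 fold change was 0.85 (SE 0.33, adjusted p = 0.105, edgeR). The Tem1lacZ/lacZ mice had 10.1, 8.14 and 9.29 CPM in the sham group and 13.9, 40.8 and 20.1 CPM in the traction group. The traction scars were again all higher, but spread from just above the sham scars to the highest *Flt4* level of all 12 libraries. The log2 fold change was 1.44 (SE 0.33, 95% CI 0.71 to 2.18, unadjusted p = 0.0012, adjusted p = 0.598, edgeR).

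Over both genotypes, *Flt4* rose with traction by 1.15 on the log2 scale (SE 0.23, 95% CI 0.63 to 1.66, adjusted p = 0.0253 in edgeR). For *Flt4*, this call did not hold without Tem1WT/WT sham replicate 1 or 2, Tem1lacZ/lacZ sham replicate 2 or 3, or Tem1lacZ/lacZ traction replicate 2 or 3, with edgeR's adjusted p between 0.0525 and 0.073. For *Vegfc*, the averaged call did not hold without Tem1WT/WT sham replicate 1 or 2, Tem1lacZ/lacZ sham replicate 2, or Tem1lacZ/lacZ traction replicate 2 or 3, with edgeR's adjusted p between 0.0503 and 0.067. The log2 fold changes of both genes stayed at 0.88 or higher throughout.

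Without traction, the estimate for *Flt4* also differed between genotypes, but it did not pass the adjusted threshold. The sham scars of Tem1lacZ/lacZ mice were all below those of Tem1WT/WT mice, with a log2 difference of -0.90 (SE 0.33, unadjusted p = 0.0201, adjusted p = 0.409, edgeR). No lymphatic vessel gene passed the adjusted threshold between the sham groups, where 0.0106% of all genes did, or between the traction groups, where 0.106% did. Among the sham groups, 4 of the 6 genes tested, *Prox1*, *Flt4*, *Vegfc* and *Reln*, were lower in Tem1lacZ/lacZ mice without overlap, as were 13.8% of all genes. With an unadjusted p under 0.05 in edgeR, 3 of the 6 genes and 6.62% of all genes were lower.

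**Figure D2:**
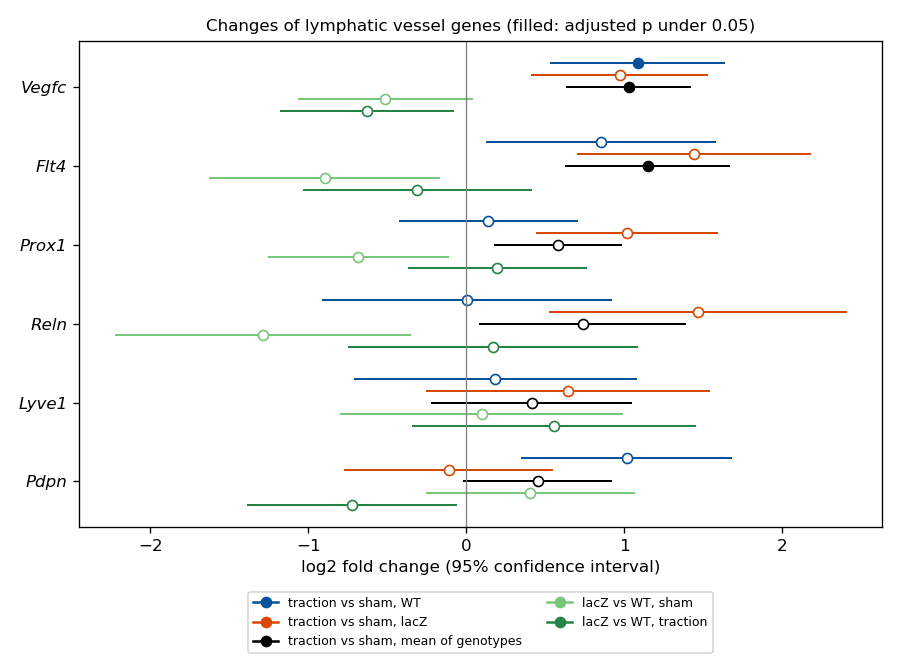
Log2 fold change (horizontal axis) of 6 lymphatic vessel genes in 5 comparisons, with 95% confidence intervals from edgeR. Filled points passed an adjusted p of 0.05 over all genes tested. These were *Vegfc* with traction in Tem1WT/WT mice, and *Vegfc* and *Flt4* with traction averaged over both genotypes.

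*Prox1*, the transcription factor, lies on the minus strand of chromosome 1 (chr1:190118035-190170714), where the antisense genes *Prox1os* and *Gm28172* overlap it. In Tem1WT/WT mice it was at 8.12, 9.94 and 6.88 CPM in the sham group and at 11.4, 7.99 and 8.09 CPM in the traction group. These groups overlapped, and the log2 fold change was 0.14 (SE 0.26, 95% CI -0.42 to 0.70, adjusted p = 0.747, edgeR). Scars of Tem1lacZ/lacZ mice had 5.21, 4.60 and 5.71 CPM in the sham group and 7.91, 14.4 and 9.20 CPM in the traction group. Here all traction scars were higher, with a log2 fold change of 1.02 (SE 0.26, 95% CI 0.45 to 1.59, unadjusted p = 0.00224, adjusted p = 0.598, edgeR). The traction effects differed between genotypes by 0.88 on the log2 scale (95% CI 0.08 to 1.68, unadjusted p = 0.033, adjusted p = 0.548, edgeR), in a test in which 0% of all genes passed the adjusted threshold and 4.46% had an unadjusted p under 0.05 in each direction. The low sham level of the Tem1lacZ/lacZ mice, whose log2 difference from the Tem1WT/WT sham group was -0.68 (SE 0.26, adjusted p = 0.409, edgeR), enters this difference. Averaged over genotypes, the log2 fold change of *Prox1* was 0.58 (SE 0.18, adjusted p = 0.0636).

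*Reln*, which encodes the secreted glycoprotein reelin, spans chr5:21884454-22344702 on the minus strand. The antisense genes *Gm10475* and *Gm16110* and the opposite-strand pseudogenes *Gm16111* and *Gm16112* overlap it. On the same strand, *Dnaja1-ps*, *Gm19666* and *Gm16113* overlap it, and their part in its counts was not tested. Levels of *Reln* in Tem1WT/WT mice were 25.9, 22.9 and 10.8 CPM in the sham group and 14.6, 23.0 and 22.3 CPM in the traction group. The groups overlapped and the log2 fold change was 0.01 (95% CI -0.91 to 0.92, adjusted p = 0.994, edgeR). Those of Tem1lacZ/lacZ mice were 10.7, 7.55 and 6.16 CPM in the sham group and 12.6, 36.2 and 18.6 CPM in the traction group. All traction scars were higher there, with a log2 fold change of 1.47 (SE 0.42, unadjusted p = 0.0054, adjusted p = 0.598, edgeR). The Tem1lacZ/lacZ sham scars were all below the Tem1WT/WT sham scars, although the gap between the nearest of them was 10.7 to 10.8 CPM, and the log2 difference was -1.29 (SE 0.42, adjusted p = 0.409, edgeR). The difference between the 2 traction effects was 1.46 (95% CI 0.16 to 2.76, unadjusted p = 0.0311, adjusted p = 0.548, edgeR).

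*Lyve1*, the hyaluronan receptor, lies on the minus strand of chromosome 7 (chr7:110850607-110863239). It was at 54.1, 39.3 and 50.1 CPM in the sham group and at 77.9, 36.7 and 48.5 CPM in the traction group of Tem1WT/WT mice. The values in Tem1lacZ/lacZ mice were 43.0, 36.0 and 74.6 CPM in the sham group and 38.2, 109.5 and 92.3 CPM in the traction group. In both genotypes the lowest traction scar was inside the sham range or below it. The log2 fold changes with traction were 0.18 (95% CI -0.70 to 1.07, adjusted p = 0.789) and 0.64 (95% CI -0.25 to 1.54, adjusted p = 0.672) in Tem1WT/WT and Tem1lacZ/lacZ mice in edgeR, and intervals this wide leave room for a 2-fold rise. Of 9 markers of resident macrophages, which also make *Lyve1*, 0 passed the threshold in any comparison in edgeR, and at most 1 had an unadjusted p under 0.05 in each. Their summed level was 1577 to 2275 CPM in the sham group and 1118 to 2047 CPM in the traction group of Tem1WT/WT mice, and 1020 to 2023 and 1080 to 2211 CPM in those of Tem1lacZ/lacZ mice. Their part in the *Lyve1* values was not tested.

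*Pdpn*, which encodes the mucin-type glycoprotein podoplanin, lies on the minus strand of chromosome 4 (chr4:143267431-143299564). In Tem1WT/WT mice it was at 99.5, 100.1 and 168.2 CPM in the sham group and at 340.8, 215.1 and 187.8 CPM in the traction group. All traction scars were higher, with a log2 fold change of 1.02 (SE 0.30, 95% CI 0.36 to 1.68, adjusted p = 0.0557, edgeR). *Pdpn* was at 135.1, 137.7 and 214.1 CPM in the sham group and at 167.6, 167.5 and 115.5 CPM in the traction group of Tem1lacZ/lacZ mice. Those groups overlapped, with a log2 fold change of -0.11 (95% CI -0.77 to 0.54, adjusted p = 0.933, edgeR). Under traction, the Tem1lacZ/lacZ scars were all below the Tem1WT/WT scars, with a log2 difference of -0.72 (SE 0.30, unadjusted p = 0.0341, adjusted p = 0.161, edgeR), as 13.7% of all genes were without overlap. The interaction estimate was -1.13 (95% CI -2.06 to -0.20, unadjusted p = 0.0216, adjusted p = 0.548, edgeR), the only one of the 6 with an interval below 0. The highest *Pdpn* level was in the library with the high neutrophil markers. Fibroblast markers, 10 genes, summed to 26923 to 42395 CPM in the sham group and to 44339 to 111803 CPM in the traction group of Tem1WT/WT mice, and to 18340 to 31314 and 22913 to 50260 CPM in those of Tem1lacZ/lacZ mice. Of these 10 markers, 7 had a positive change with traction in Tem1WT/WT mice (estimates from -0.41 to 1.68). In Tem1lacZ/lacZ mice 5 had one (from -1.64 to 1.43). Averaged over genotypes, 4 passed upward and 1 downward in edgeR, against 6.5% and 3.23% of all genes. The 10 keratinocyte markers summed to 14997 to 19731 CPM (sham) and 16493 to 23717 CPM (traction) in Tem1WT/WT mice. In Tem1lacZ/lacZ mice they summed to 20917 to 24697 CPM (sham) and 17788 to 48435 CPM (traction). The part of fibroblasts and keratinocytes in the *Pdpn* values was not tested.

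In the Tem1lacZ/lacZ traction group, replicate 2 held the highest level of *Prox1*, *Flt4*, *Lyve1* and *Reln* of all 12 libraries, and replicate 1 held the lowest level of the group for *Prox1*, *Flt4*, *Lyve1*, *Vegfc* and *Reln*. Replicate 1 was also the library with the high keratinocyte markers, and its 12 blood endothelial markers had a geometric mean of 28.1 CPM against 46.2 and 48.1 CPM in the other two. The part of this difference in the results was not tested. Without replicate 1, the log2 fold change of *Flt4* with traction in Tem1lacZ/lacZ mice was 1.77 (adjusted p = 0.0495, edgeR), in a fit in which 73 of 19403 genes passed the threshold.

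*Ccl21a*, the chemokine gene, could not be measured. On chromosome 4 (chr4:42772860-42773993, minus strand) it sits in a cluster of near-identical genes, and it had 0 counts in 11 libraries and 2 counts in replicate 3 of the Tem1WT/WT traction group. A count of 0 allows for up to 3 counts, or 0.0435 to 0.0739 CPM. A 150-base stretch of the coding sequence, from position 64 to 213 counted from the start codon, is shown for *Ccl21a* and for *Ccl21b* as annotated in GENCODE vM21, since how far the copies can be distinguished decides what the counts mean. Capitals mark the only positions at which their 402 coding bases differ.
Ccl21a: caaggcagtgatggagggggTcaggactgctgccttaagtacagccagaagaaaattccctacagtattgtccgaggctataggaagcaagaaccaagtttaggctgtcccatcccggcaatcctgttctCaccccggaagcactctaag
Ccl21b: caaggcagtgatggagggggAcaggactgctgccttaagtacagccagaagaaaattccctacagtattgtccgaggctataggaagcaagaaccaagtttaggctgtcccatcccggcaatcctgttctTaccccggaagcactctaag

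The substitutions are T84A and C194T, and the coding sequences of *Gm10591*, *Gm13304* and *Gm21541* are the same as that of *Ccl21b*. Of the 721 windows of 150 bases, the read length, along the *Ccl21a* transcript, 243 (33.7%) occurred unchanged in a transcript of another of these genes. The same search found 0 such windows in the transcripts of the other 6 lymphatic vessel genes. For *Ccl21b*, *Gm10591* and *Gm13304* the share was 100%, and for *Gm21541* it was 95.4%. Copies on unplaced scaffolds were not part of this search, so the shares are lower bounds. Read pairs reach further than a single window, and how reads that match several places were handled is not given in the sources used here.

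Counts in this family were found mainly on a further *Ccl21* copy, *Gm1987*, whose sequence was not used here and which was singled out after its values were seen. It was at 0.412, 0.377 and 44.0 CPM in the sham group and at 0.0952, 0.132 and 0.247 CPM in the traction group of Tem1WT/WT mice. The levels in Tem1lacZ/lacZ mice were 36.7, 15.9 and 0.121 CPM in the sham group and 11.1, 0.267 and 6.18 CPM in the traction group. The libraries thus fell into 5 with at least 328 counts and 7 with at most 26 counts, and both kinds occurred in 3 of the 4 groups. The other 6 symbols of the family, *Ccl21a* included, had 0 to 44 counts in any library. RefSeq lists *Gm1987* from base 120655 to 121788 of a sequence that it assigns to chromosome 4, while GENCODE vM21 has a second gene named *Ccl21a* on the unplaced scaffold JH584294.1 from base 121048 to 121713. Whether these are the same locus was not tested, and no level of CCL21 transcripts is therefore given for the groups.

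**Figure D3:**
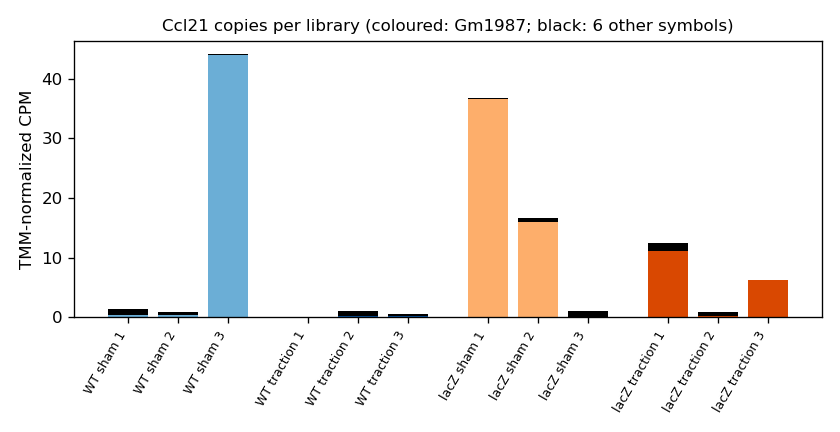
TMM-normalized CPM (vertical axis, linear, from 0) summed over 7 symbols of the *Ccl21* family in each of the 12 libraries. Coloured bars are *Gm1987* and black bars the 6 other symbols together. The 5 libraries above 5 CPM belong to 3 groups, and the other 7 are near 0 in *Gm1987*.

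Because traction also raised blood endothelial markers, the lymphatic vessel genes were set against these. Whether the markers are restricted to blood vessels was not tested, so a comparison with them cannot separate blood from lymphatic endothelium. The geometric mean of 12 blood endothelial markers, among them *Pecam1*, *Cdh5* and *Kdr*, was 24.0, 29.1 and 32.2 CPM in the sham group and 63.9, 60.6 and 70.1 CPM in the traction group of Tem1WT/WT mice. In Tem1lacZ/lacZ mice it was 31.2, 19.0 and 24.9 CPM in the sham group and 28.1, 46.2 and 48.1 CPM in the traction group. Of these 12 markers, 8 rose with traction in Tem1WT/WT mice (list median 1.34 on the log2 scale), and 0 passed in Tem1lacZ/lacZ mice, where 7 had an unadjusted p under 0.05 in edgeR and the median was 0.62. Of all genes, 5.61% rose in Tem1WT/WT mice. In Tem1lacZ/lacZ mice 5.66% were higher with an unadjusted p under 0.05.

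When each library was scaled to this endothelial mean in place of its total, 3 lymphatic vessel genes were lower under traction in Tem1WT/WT mice. The log2 difference was -1.07 for *Prox1* (adjusted p = 0.0126, edgeR), -1.03 for *Lyve1* (adjusted p = 0.0211, edgeR) and -1.25 for *Reln* (adjusted p = 0.0162, edgeR). On this scale 68.9% of all genes passed downward and the median of all genes was -1.21, close to the values of these 3 genes. The call of *Prox1* did not hold without Tem1WT/WT traction replicate 3 (adjusted p = 0.0506, edgeR). That of *Lyve1* did not hold without Tem1WT/WT sham replicate 1 or traction replicate 2 or 3 (adjusted p of 0.0701 to 0.0985, edgeR), nor that of *Reln* without sham replicate 1 or traction replicate 1 (adjusted p of 0.0964 and 0.0538, edgeR). *Flt4*, *Vegfc* and *Pdpn* were at -0.37, -0.13 and -0.15, with adjusted p of 0.31, 0.75 and 0.733 in edgeR, and thus lay nearer to the blood endothelial markers than to the median gene. Averaged over both genotypes on this scale, *Flt4* was at 0.15 and *Vegfc* at 0.04 against a median of -0.96 over all genes, and *Lyve1* alone of the 6 passed the threshold, at -0.59 (adjusted p = 0.0466, edgeR), where 73.5% of all genes passed downward. This call of *Lyve1* did not hold with the replicate number as a block (adjusted p = 0.0593, edgeR), nor without replicate 1 or 3 of the Tem1WT/WT sham group, 2 or 3 of the Tem1lacZ/lacZ sham group, 2 or 3 of the Tem1WT/WT traction group, or 1 or 3 of the Tem1lacZ/lacZ traction group (adjusted p of 0.0577 to 0.154, edgeR).

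**Figure D4:**
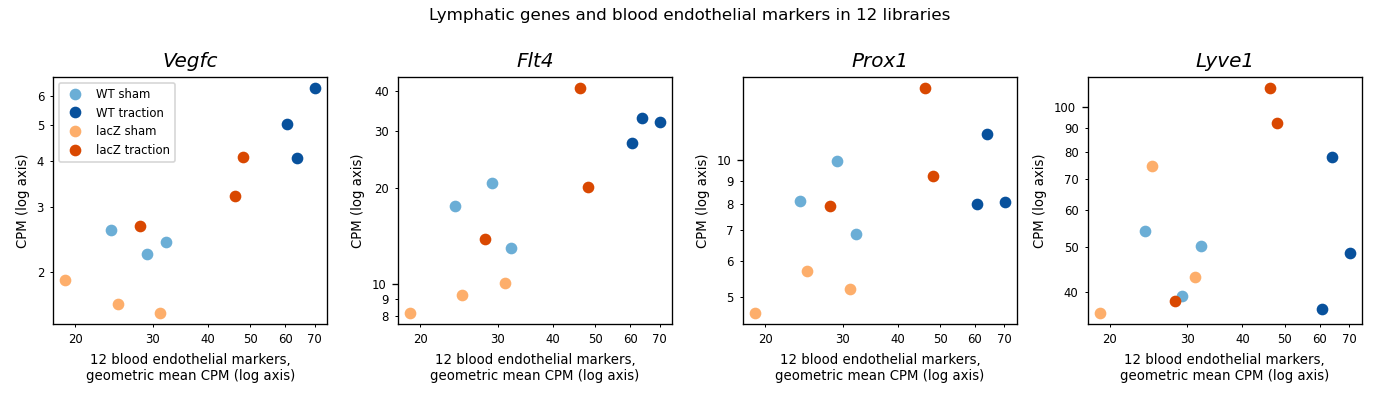
CPM of *Vegfc*, *Flt4*, *Prox1* and *Lyve1* (vertical axes, log) against the geometric mean CPM of 12 blood endothelial markers (horizontal axes, log) in 12 libraries, coloured by group. The Tem1WT/WT traction scars lie farthest to the right, between 60.6 and 70.1 CPM of the endothelial mean, and hold the highest *Vegfc* but for an overlap with 1 Tem1lacZ/lacZ traction scar, while the highest *Flt4*, *Prox1* and *Lyve1* are in a Tem1lacZ/lacZ traction scar at 46.2 CPM.

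Across the 12 libraries, which span both treatments and genotypes and share each library's depth and composition, log2 CPM of *Vegfc* had a Pearson correlation of 0.88 with the endothelial mean and *Flt4* one of 0.83, against 0.59 for *Prox1* and 0.33 for *Lyve1*. Taken as deviations from the group means, these became 0.23, 0.51, 0.37 and 0.56. *Flt4* was the tested gene whose pattern was most like *Prox1* (r = 0.89, and 0.89 also for the deviations). *Flt4* itself was most like *Cc2d1a*, *Med13l* and *Hdgfrp2*, at 0.96 to 0.97. The genes most like *Vegfc* were *Gas1*, *Bmf* and the endothelial junction gene *Cldn5*, at 0.94 to 0.95. *Pdpn* was most like *Timp1*, *Tmem173* and *Unc93a*, at 0.93 to 0.96, and *Reln* was most like *Srsf4*, *Angpt4* and *Nfrkb*, at 0.90 to 0.91. The nearest gene to *Lyve1* was the junction gene *Jam2*, at 0.81, followed by *A230050P20Rik* and *A630001G21Rik*. By deviations alone, the nearest were *Nrxn2*, *Sart1* and *Rrp1b* for *Prox1*, *Flot2*, *Lacc1* and *Olfm1* for *Lyve1*, *Rrp1b*, *Kdm8* and *Ift140* for *Flt4*, *Aff3*, *Agfg2* and *Mcoln1* for *Vegfc*, *Ecscr*, *Timp1* and *Ms4a4a* for *Pdpn*, and *Gata3*, *Fzd7* and *Pdzd2* for *Reln*. All these are the highest correlations among all genes compared over 12 points and are given as a description.

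The pathway around these genes was counted from 59 further symbols in 5 lists, of which 53 passed the filter. With traction in Tem1WT/WT mice, 11 of the 53 rose and 2 fell, where 5.61% of all genes rose and 3.54% fell. The median log2 fold change of the 53 was 0.69, against -0.01 over all genes. In the same comparison 8 of the 12 blood endothelial markers rose, with a median of 1.34. The 5 lists are not limited to genes of lymphatic vessels, and they were not set against these markers. Of the same 53, in Tem1lacZ/lacZ mice 0 passed in edgeR, 18 had a positive change with an unadjusted p under 0.05, and the median was 0.28. Of all genes, 5.66% had such a positive change there. Averaged over genotypes, 18 rose and 0 fell, where 6.5% of all genes rose and 3.23% fell. In Tem1WT/WT mice, where 13 were called, 0 were without Tem1WT/WT sham replicate 1 or 2, 3 without Tem1lacZ/lacZ sham replicate 3, 4 without Tem1WT/WT traction replicate 1, 6 without Tem1WT/WT sham or traction replicate 3, and 8 without Tem1lacZ/lacZ sham replicate 1 or traction replicate 2 or 3. In the average, the 18 became 0 without Tem1lacZ/lacZ sham replicate 2, 1 without Tem1WT/WT sham replicate 1 or Tem1lacZ/lacZ traction replicate 2, 5 without Tem1lacZ/lacZ traction replicate 3, and 8 and 9 without Tem1WT/WT sham replicate 2 and Tem1lacZ/lacZ sham replicate 3. The traction comparisons of the 2 genotypes share no library, and 29 of the 53 had a positive estimate in both. So had 5 of the 6 lymphatic vessel genes, all 12 blood endothelial markers and 33.1% of all genes. No gene of the 5 lists passed between genotypes or in the interaction, but at an unadjusted p under 0.05 in edgeR 8 of the 53 were lower in the Tem1lacZ/lacZ sham group, where 6.62% of all genes were. In the Tem1lacZ/lacZ traction group 4 were higher and 15 lower, against 11.1% and 15.1% of all genes. The interaction was positive for 4 and negative for 2, against 4.46% of all genes each way.

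Among growth factors and their receptors, 3 of 13 rose with traction in Tem1WT/WT mice, where 5.61% of all genes did. *Ccbe1*, whose product brings VEGF-C to its processing protease, had the largest rise. It was at 13.6, 18.8 and 24.3 CPM in the sham group and at 83.6, 66.2 and 91.1 CPM in the traction group. The groups were far apart, with a log2 fold change of 2.09 (SE 0.29, adjusted p = 0.0184, edgeR). In Tem1lacZ/lacZ mice *Ccbe1* was at 14.4, 11.8 and 13.9 CPM in the sham group and at 21.9, 48.3 and 33.4 CPM in the traction group, also without overlap, with a log2 fold change of 1.37 (SE 0.28, adjusted p = 0.598). *Angpt2*, a ligand of the TIE2 receptor, had a log2 fold change of 1.91 (adjusted p = 0.0288, edgeR) and *Tie1*, the partner of that receptor, one of 1.55 (adjusted p = 0.0252, edgeR) in Tem1WT/WT mice. *Tek*, which encodes TIE2 itself, had the lowest estimate of the list, at -0.08.

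*Vegfd*, the second ligand of VEGFR-3, was at 17.4, 20.8 and 26.0 CPM in the sham group and at 21.1, 52.4 and 78.7 CPM in the traction group of Tem1WT/WT mice. It was, in Tem1lacZ/lacZ mice, at 17.4, 9.33 and 21.9 CPM in the sham group and at 14.5, 89.0 and 44.3 CPM in the traction group. In each genotype the first traction scar lay within the sham range. The log2 fold changes were 1.25 (adjusted p = 0.184) and 1.60 (adjusted p = 0.598) in edgeR. Per exon length *Vegfd* was above *Vegfc* in every group, with group means of 7.92 to 24.8 RPKM. Averaged over genotypes, the co-receptor *Nrp2* rose by 0.96 (adjusted p = 0.0216, edgeR), *Itga9* by 0.86, *Svep1* by 1.32 and *Adm* by 1.60, beside *Ccbe1*, *Angpt2* and *Tie1*. These made up the 7 of 13 that passed, where 6.5% of all genes passed upward.

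Of 15 transcription factors and identity genes, 2 rose and 1 fell with traction in Tem1WT/WT mice. Of all genes, 5.61% rose and 3.54% fell in this comparison. *Sox18*, a factor upstream of *Prox1* in the embryo, was at 6.25, 10.1 and 10.3 CPM in the sham group and at 24.6, 21.5 and 33.3 CPM in the traction group. Its log2 fold change was 1.57 (SE 0.29, adjusted p = 0.0252, edgeR). *Stab1*, a scavenger receptor shared with macrophages, rose by 1.37 (adjusted p = 0.0487, edgeR), and *Klf4* changed by -0.53 (adjusted p = 0.0492, edgeR). The lowest estimate, -1.63 for *Clca3a1*, did not pass (adjusted p = 0.0739, edgeR). *Nr2f2*, *Nfatc1* and *Hhex* passed only in the average over genotypes, with log2 fold changes of 0.88, 0.57 and 1.04, together with *Sox18* and *Stab1*. Of all genes, 6.5% passed upward in that average.

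In the list of valve, polarity and junction genes, 4 of 12 rose in Tem1WT/WT mice, where 5.61% of all genes did. These were *Gja4* by 1.17, *Ephb4* by 0.84, the mechanosensitive channel gene *Piezo1* by 0.98 and *Cldn5* by 0.76. The same 4 and *Dchs1* passed in the average over genotypes, where 6.5% of all genes passed upward. *Dchs1* had the highest estimate in Tem1WT/WT mice, 1.71, without passing (adjusted p = 0.0683, edgeR). Of the 6 tested genes for chemokines and leukocyte exit, *S1pr1*, a receptor that holds blood and lymphatic endothelium together, rose by 1.36 (adjusted p = 0.0272, edgeR). *Ccr7*, the receptor for CCL21, had the highest estimate of that list, 1.40, and *Ackr4*, which clears CCL21, the lowest, -1.0, and neither passed. *Ccr7* was at 3.63, 3.67 and 6.22 CPM in the sham group and at 26.7, 3.91 and 5.10 CPM in the traction group of Tem1WT/WT mice, so that its estimate rests on replicate 1 of the traction group, the library with the high neutrophil markers. *Ccl21c* passed the filter, but for the reasons given for *Ccl21a* no change is given for it. Of the 7 genes linked to reelin and podoplanin, the cytoskeletal linker *Msn* rose by 0.99 (adjusted p = 0.0381, edgeR). *Lrp8*, a reelin receptor, had the highest estimate, 1.19, without passing (adjusted p = 0.0788, edgeR). *Dab1*, the adaptor of the reelin receptors, had a log2 fold change of -3.34 (SE 0.80, adjusted p = 0.0355, edgeR) at low levels, with 6.64, 1.68 and 1.74 CPM in the sham group and 0.0476, 0.685 and 0.247 CPM in the traction group. The lowest of these is 2 counts. Without 1 library the *Dab1* estimate lay between -4.43 and -2.38, and the call was lost in 8 of 19 alternatives. These were the fits without Tem1WT/WT sham replicate 1 or 2, Tem1lacZ/lacZ sham replicate 3 or Tem1WT/WT traction replicate 1 or 3, the replicate block, limma-voom and the 6 libraries alone, with adjusted p of 0.0539 to 0.133.

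**Figure D5:**
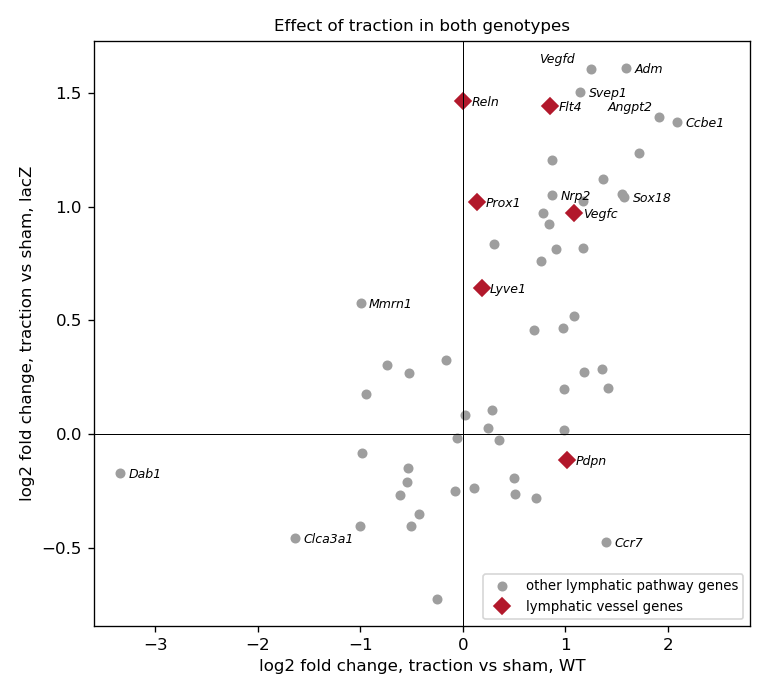
Log2 fold change with traction in Tem1WT/WT mice (horizontal axis) and in Tem1lacZ/lacZ mice (vertical axis) of the 6 lymphatic vessel genes (red diamonds) and of the other lymphatic pathway genes tested (grey points, without *Ccl21c*). *Vegfc* and *Flt4* lie in the upper right with *Ccbe1*, *Angpt2* and *Sox18*. *Prox1* and *Reln* lie near 0 on the horizontal axis, *Pdpn* lies near 0 on the vertical axis, and *Mmrn1* is to the upper left.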

How the data were processed

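RNA-seq of 12 scars was analysed. The authors extracted RNA from part of each scar and prepared TruSeq stranded mRNA libraries. Reads were trimmed with fastp 0.20.0, aligned to GRCm38 with HISAT2 2.1.0 and assigned to genes with featureCounts 2.0.0, per the labels' processing notes. The authors deposited the counts per gene as whole numbers, not normalized. The annotation release, strand setting and treatment of multi-mapping reads are not given in the sources used here.

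Counts were filtered (filterByExpr by group), TMM-normalized and fitted with robust quasi-likelihood in edgeR 4.0.16 (R 4.3.3) as a single model of 4 groups with 8 residual degrees of freedom. All tests were two-sided, with Benjamini-Hochberg adjustment over all genes tested. The study used DESeq2, which was here an alternative (version 1.42.0), as was limma-voom (limma 3.58.1). Levels are TMM-normalized CPM. RPKM used exon lengths of GENCODE vM21, which also gave coordinates and the *Ccl21* sequences. Confidence intervals come from the fit, and the floor of 3 counts covers counting error only. The scripts were first tested on simulated data. Figures were drawn with matplotlib 3.10.9.

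The members, the marker and pathway lists and the alternatives were chosen with earlier results of these data known. Pathway genes were named where they passed the threshold in a comparison or had the highest or lowest estimate of their list with traction in Tem1WT/WT mice, and 3 genes per member by likeness over 12 libraries (Pearson r of log2 CPM, prior count 2, mean log2 CPM of at least 1). Some values were added after being seen, as stated, and a few genes that this rule names are not reported here. Same-numbered libraries came from different mice. Their deviations from the group means correlated between -0.32 and 0.25 over 18 pairs, of which 8 were above 0.1. In most of these pairs, though not in all, the correlation was higher than with the other-numbered libraries of the second group. Whether the number stands for a batch was not tested, and a fit with it as a block was run as an alternative. The labels give separate samples, and no pair of libraries was a copy.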

Additional observations from a re-analysis of the deposited data

Results flagged for a closer look

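*Mmrn1*, a gene of lymphatic endothelium and platelets, moved in opposite directions in the 2 genotypes, with every scar of the traction group below every sham scar in Tem1WT/WT mice and above every sham scar in Tem1lacZ/lacZ mice. It was at 101, 90.3 and 62.7 CPM in the sham group and at 35.9, 60.5 and 30.6 CPM in the traction group of Tem1WT/WT mice. The Tem1lacZ/lacZ scars had 57.0, 64.2 and 58.0 CPM in the sham group and 75.1, 125 and 67.4 CPM in the traction group. The difference between the traction effects was 1.57 on the log2 scale (95% CI 0.66 to 2.49, unadjusted p = 0.00304), which did not pass adjustment over all genes (adjusted p = 0.548, edgeR interaction term). Taken singly, 18% of all genes were lower without overlap in Tem1WT/WT mice and 6.77% higher without overlap in Tem1lacZ/lacZ mice. The share of all genes with both was not counted. *Mmrn1* was picked by this pattern from the lymphatic vessel and pathway genes, and was named here after its values were seen.

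*Gm1987*, a further *Ccl21* copy outside the genes compared, had up to 2689 counts in a library, while *Ccl21a* had 0 in 11 of 12 libraries. Its 5 libraries with many counts were spread over 3 groups. The cause was not tested.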

How the results depend on the processing

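Of the 6 lymphatic vessel genes tested, the number called with traction in Tem1WT/WT mice was 1, against 2 with DESeq2's Wald test, 0 with only the 6 libraries compared and 0 to 2 when 1 library was left out. Over all genes the number was 1725 of 18853, against 4047 with DESeq2. It was 0 with the 6 libraries and 0 to 2861 with a library left out. For the lymphatic vessel genes in Tem1lacZ/lacZ mice it was 0, against 1 with DESeq2, 2 with limma-voom and 0 to 1 with a library left out. Over all genes it was 0 of 18853 there, against 23 with DESeq2, 435 with limma-voom and 0 to 73 with a library left out. Averaged over genotypes 2 lymphatic vessel genes were called, against 0 to 3 over the alternatives, while over all genes the number was 1835, against 0 to 3881. Relative to blood endothelial markers, 3 lymphatic vessel genes were called, against 1 to 3, in Tem1WT/WT mice and 1, against 0 to 1, in the average. No lymphatic vessel gene was called between genotypes or in the interaction under any alternative. Over all genes, edgeR's main fit called 2 between sham groups, 20 between traction groups and 0 in the interaction. DESeq2 called 27, 2309 and 69. Of the 53 pathway genes, 13 were called with traction in Tem1WT/WT mice, against 26 with DESeq2, 7 with limma-voom, 0 with 6 libraries and 0 to 19 with a library left out, and 18 in the average, against 0 to 22 with a library left out and 0 to 25 over all alternatives. Over all genes, limma-voom called 748 with traction in Tem1WT/WT mice. The average with a library left out called 0 to 3422 of all genes. The cause of these changes was not tested.

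With traction in Tem1WT/WT mice, *Lyve1* turned to -0.045 with limma-voom, and *Reln* to -0.0087 with all genes of at least 1 count and to -0.10 with upper quartile normalization. Scaled to *Pecam1* and *Cdh5* alone, the averages of *Flt4* and *Vegfc* turned to -0.027 and -0.13. With a library left out, the changes that turned sign ranged from -0.066 to 0.31 (*Prox1*), -0.19 to 0.42 (*Lyve1*) and -0.28 to 0.23 (*Reln*) in Tem1WT/WT mice, -0.20 to 0.17 for *Pdpn* in Tem1lacZ/lacZ mice, -0.29 to 0.28 for *Lyve1* between sham groups, -0.091 to 0.42 (*Prox1*), -0.85 to 0.015 (*Flt4*) and -0.35 to 0.50 (*Reln*) between traction groups, and -0.31 to 0.088 for the *Vegfc* interaction. Relative to endothelial markers they were -0.24 to 0.057 (*Vegfc*) and -0.45 to 0.059 (*Pdpn*) in Tem1WT/WT mice and -0.042 to 0.25 (*Flt4*) and -0.063 to 0.20 (*Vegfc*) in the average.

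With the replicate number as a block, 0 genes passed in the average relative to endothelial markers in place of 1, and no other call of a lymphatic vessel gene changed. Of the pathway genes named, those of *Klf4*, *Ephb4*, *Dab1* and *Msn* in Tem1WT/WT mice and of *Adm*, *Nfatc1* and *Dchs1* in the average were lost, at adjusted p of 0.0504 to 0.0614. Across all genes, DESeq2 called 4047 with traction in Tem1WT/WT mice against 1725, and leaving out Tem1WT/WT sham replicate 1 or 2 left 0.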

Other observations

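The count of *Flt4* divided by that of *Prox1* in the same library does not depend on the normalization. It was 2.16, 2.09 and 1.88 in the sham group and 2.90, 3.46 and 3.96 in the traction group of Tem1WT/WT mice. The groups did not overlap, and an exact permutation test of the log2 ratios gave p = 0.1, two-sided, the smallest p that 3 against 3 scars allow. The ratio in Tem1lacZ/lacZ mice was 1.95, 1.77 and 1.63 in the sham group and 1.76, 2.84 and 2.19 in the traction group, which overlapped (exact permutation test, p = 0.3). Of 4 such ratios examined in both genotypes after the values of the genes were seen, *Flt4*, *Reln* and *Lyve1* to *Prox1* and *Vegfd* to *Vegfc*, this was the only one whose groups did not overlap in a genotype. With Benjamini-Hochberg adjustment over these 8 tests the smallest adjusted p was 0.8.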
